A study of Homo sapiens with 6 samples.

Results

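Glucuronidation genes of androgen clearance were followed in 22RV1, an established human prostate cancer line, across 6 two-colour arrays. The set named 9 UDP-glucuronosyltransferase (UGT) genes: UGT2B4, UGT2B7, UGT2B10, UGT2B11, UGT2B15, UGT2B17, UGT2B28, UGT1A1 and UGT1A6. Probes were taken wherever the scanner file's gene name was a member, which gave 9 probes for 7 genes among 58201 gene probes and 43317 gene names on the array. No probe carried the name UGT2B17 or UGT1A1. Of the 9 probes, 7 (for 6 genes) were bright enough to be tested.

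The cells were stable 22RV1 lines made with lentiviral vectors: pLemiR-338-5p, pLemiR-421 or, as control, pLemiR-RFP. Per the labels they are positive for SPINK1 and were kept in RPMI medium with fetal bovine serum and puromycin. The control RNA carried the dye Cy3 and the RNA of each miRNA line the dye Cy5 on every array, with no dye swap. The miR-338-5p line had replicates 1, 2 and 3, and the miR-421 line had replicates 1 and 2 and a sample labelled as a pool, whose contents are not stated. Neither the number of clones behind a line nor whether 1 control culture served all arrays is stated. The p-values therefore measure the spread between these samples, which may be technical, and both lines were compared with the same kind of control. A microRNA (miRNA) is a short RNA that lowers the output of messenger RNAs to which its seed pairs.

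UGT enzymes sit in the endoplasmic reticulum and join glucuronic acid, carried by UDP, to steroids, bilirubin, bile acids and drugs, which makes them water soluble and ready for export. In the prostate, UGT2B15 and UGT2B17 are known for ending the action of dihydrotestosterone by glucuronidating it and its reduced metabolites. UGT2B genes lie in a cluster on chromosome 4, whereas UGT1A genes on chromosome 2 splice different first exons to a shared end.

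The sequences of both overexpressed miRNAs, with the seed (bases 2 to 8) in capitals, show that their seeds are not shared. They are RefSeq's, on GRCh38.p14 (chr17:81125923-81125944, minus strand, and chrX:74218392-74218414, minus strand).
hsa-miR-338-5p: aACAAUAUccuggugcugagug
hsa-miR-421: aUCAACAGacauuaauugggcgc

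The probes printed here, 5′ to 3′ and with no part marked, are those of the 3 genes with the brightest Cy5 signals described below, and their coordinates are those of the array files on hg19. The UGT2B10 probe A_23_P7342 lies at chr4:69696473-69696532 on the plus strand, the UGT2B7 probe A_23_P136671 at chr4:69978384-69978443 on the plus strand and the UGT2B11 probe A_23_P212968 at chr4:70074103-70074162 on the minus strand. Exon annotation of hg19 was not used here.
UGT2B10 A_23_P7342: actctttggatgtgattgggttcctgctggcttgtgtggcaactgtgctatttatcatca
UGT2B7 A_23_P136671: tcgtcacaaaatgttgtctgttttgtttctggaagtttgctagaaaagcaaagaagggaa
UGT2B11 A_23_P212968: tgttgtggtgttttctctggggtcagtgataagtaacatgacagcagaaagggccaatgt

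These genes are close copies, and the array files list transcripts of more than 1 gene for several probes. The file lists at most 4 accessions a probe. It gives the UGT2B10 probe a UGT2B11 transcript, the UGT2B11 probe UGT2B28 transcripts, and the UGT2B15 probe A_23_P58407 (chr4:69512758-69512817, minus strand) a UGT2B17 transcript. Both UGT1A6 probes (A_23_P60599, chr2:234681607-234681665, and A_24_P222872, chr2:234676521-234676580, plus strand) also list transcripts of UGT1A8, UGT1A4 and UGT1A1. The signals called UGT2B15 and UGT1A6 here are thus not specific to those genes, and UGT2B17 and UGT1A1 could be read only through them. No stretch longer than 9 bases was shared by any 2 of the UGT probes. Probes were compared only with each other, not with transcripts of other members, so this does not show that each probe reads 1 gene.

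Between 42% and 45.7% of gene probes were well above background in Cy3, and between 39.6% and 46.2% in Cy5, miR-421 replicate 1 being lowest. There were no saturated gene spots and no outlier spots among the members. All 9 markers of luminal prostate cells were well above background in both dyes on all 6 arrays. Log2 ratios of miR-338-5p replicate 2 correlated with those of the other arrays at 0.337 to 0.523 across probes, and all other pairs of arrays correlated at 0.494 to 0.823.

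UGT2B15, which glucuronidates dihydrotestosterone, was read in the control channel on all 6 arrays. Its Cy3 net brightness (spot minus local background, in scanner units) lay between 23.7 and 28.4. In Cy5 it was 20.7, 148 and 6.42 in miR-338-5p replicates 1, 2 and 3, and 8.21, 3.45 and 9.02 in the miR-421 pool, replicate 1 and replicate 2. The Cy5 signal was thus bright on miR-338-5p replicate 2 alone, and was not well above background on miR-338-5p replicate 3 or on any miR-421 array. Log2 ratios of the miRNA line over control, after background correction with an offset, were -0.0018, 1.59 and -0.38 in the miR-338-5p replicates, and -0.37, -0.33 and -0.34 in the miR-421 arrays. The groups overlapped, and all 3 miR-421 arrays were below 0, as were those of 31.2% of all tested probes.

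The mean log2 ratio of UGT2B15 under miR-421 was -0.35 ± 0.02 (SD, n = 3), and failed limma's threshold, an adjusted p of 0.05 (adjusted p 0.522). The miR-421 arrays varied little, but the fit shares 1 spread per probe between both groups, and the miR-338-5p arrays had an SD of 1.05. The miR-421 mean does not use the miR-338-5p arrays, so it is -0.35 without miR-338-5p replicate 2 as well. In that fit it passed, with a limma adjusted p of 0.0471. Because Cy5 was not well above background on the 3 miR-421 arrays, the size is not settled. The measured signal was 1.27-fold lower than control, or 3.43-fold with the background subtracted outright. Under miR-338-5p the mean was 0.40 ± 1.05 (SD, n = 3; limma adjusted p 0.526), and without replicate 2 it was -0.19 (limma adjusted p 0.384).

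UGT2B10, known for glucuronidating amines such as nicotine, was read well above background in both dyes on all arrays, like 1 probe of UGT1A6. Its Cy3 net brightness was between 57.1 and 110. In Cy5 it was 77.7, 766 and 32.7 in miR-338-5p replicates 1, 2 and 3, and 68.9, 35.7 and 50.4 in the miR-421 pool and replicates 1 and 2. Only miR-338-5p replicate 2 stood far from its control. The log2 ratios were 0.22, 2.66 and -0.24 in the miR-338-5p replicates and 0.13, -0.07 and -0.18 in the miR-421 arrays. The mean under miR-338-5p was 0.88 ± 1.56 (SD, n = 3; limma adjusted p 0.341), and without replicate 2 it was -0.0070 (limma adjusted p 0.986). Under miR-421 it was -0.04 ± 0.16 (SD, n = 3; limma adjusted p 0.966).

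UGT2B7, which acts on morphine and on several steroids and their metabolites, was dim in control cells, with a Cy3 net brightness of 5.23 to 10.3 that was well above background on 1 of 6 arrays. Its Cy5 brightness was 11.6, 242 and 4.12 in miR-338-5p replicates 1, 2 and 3, and 13.5, 4.95 and 3.19 in the miR-421 pool and replicates 1 and 2. The probe A_23_P136671 was thus bright on the same array as UGT2B10 and UGT2B15. Its log2 ratios were 0.12, 2.47 and -0.07 in the miR-338-5p replicates and 0.09, 0.04 and -0.03 in the miR-421 arrays. The means were 0.84 ± 1.42 and 0.04 ± 0.06 (SD, n = 3 each), with limma adjusted p of 0.32 and 0.967. Its other probe, A_21_P0012590 (chr4:69955255-69955314, named by an Ensembl transcript), was not bright on that array: its Cy5 brightness was 8.37, against 2.27 to 9.84 elsewhere. It was well above background in Cy5 on miR-338-5p replicate 3 only and was not tested.

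UGT2B11, whose substrates are little known, was bright on the same array. Cy5 brightness was 17.5, 196 and 5.76 in miR-338-5p replicates 1, 2 and 3, and 15.3, 3.4 and 13.4 in the miR-421 pool and replicates 1 and 2, against 8.93 to 18.4 in Cy3. The log2 ratios were 0.20, 2.07 and -0.07, and 0.04, -0.07 and -0.11. Again only miR-338-5p replicate 2 stood apart, and the means, 0.73 ± 1.16 and -0.05 ± 0.08 (SD, n = 3 each), did not pass (limma adjusted p 0.292 and 0.945).

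UGT2B4, known for glucuronidating bile acids, was near background on every array. It was well above background in Cy3 on 2 arrays and in Cy5 on 3, and its highest Cy5 brightness, 21.8, was on miR-338-5p replicate 2. Its log2 ratios were 0.05, 0.29 and -0.12 in the miR-338-5p replicates and -0.05, -0.02 and 0.19 in the miR-421 arrays, so the groups overlapped (limma adjusted p 0.67 and 0.806 for the means). UGT2B28, another steroid-conjugating enzyme, was not detected by the probe of that name. This probe, A_33_P3424872 (chr4:70267765-70267824), was well above background in neither dye on any array, with net brightness of -0.911 to 6.6. No gene symbol was matched to its RefSeq accessions, whereas the UGT2B11 probe lists UGT2B28 transcripts, so the level of UGT2B28 is not settled.

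**Figure D1:**
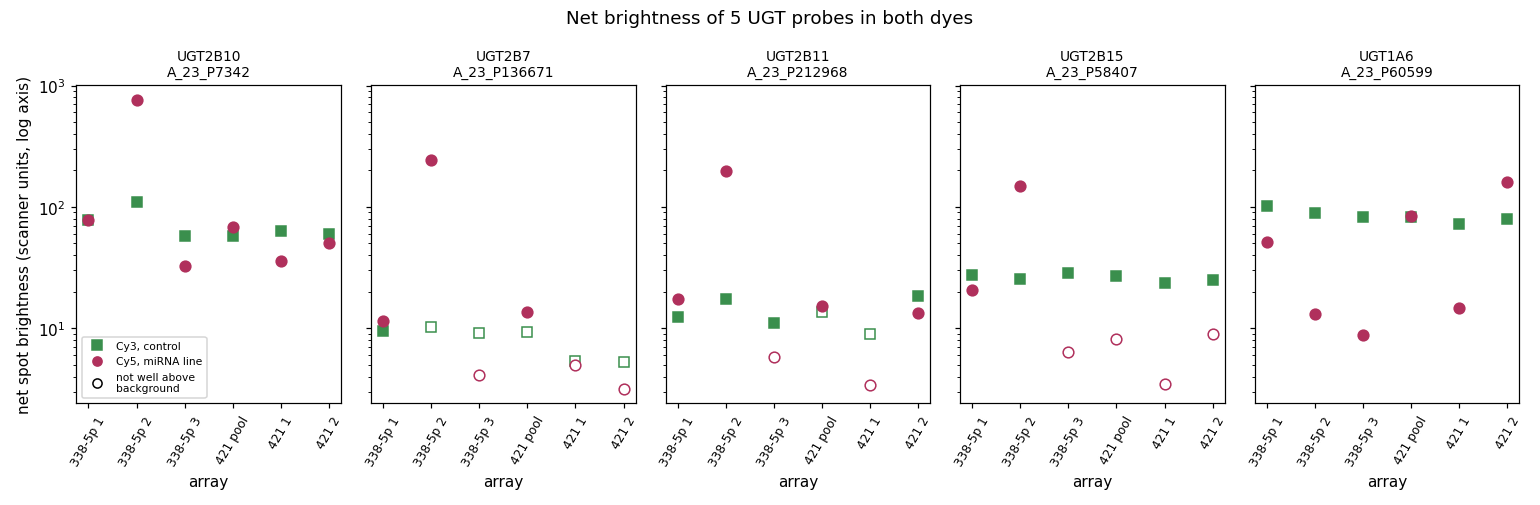
Net brightness in scanner units (log axis) of 5 UGT probes on each of the 6 arrays, as squares for Cy3 (control) and circles for Cy5 (miRNA line), open where not well above background; each symbol is 1 array. Cy5 of the 4 UGT2B probes is highest on miR-338-5p replicate 2, at 148 to 766, while Cy3 stays within 5.23 to 110 on all arrays.

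UGT1A6 conjugates small planar phenols and was read by 2 probes that behaved differently in level. A_23_P60599 was well above background in both dyes on all 6 arrays. Its Cy3 brightness lay between 72.6 and 102, and its Cy5 brightness was 51.4, 13 and 8.81 in miR-338-5p replicates 1, 2 and 3, and 84.4, 14.7 and 162 in the miR-421 pool and replicates 1 and 2. Cy5 was below Cy3 on all 3 miR-338-5p arrays and on miR-421 replicate 1, level with it in the pool, and above it on miR-421 replicate 2.

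The log2 ratios of this UGT1A6 probe were -0.35, -0.91 and -1.01 in the miR-338-5p replicates and -0.0028, -0.62 and 0.63 in the miR-421 arrays, and the groups overlapped. The miR-338-5p mean was -0.76 ± 0.35 (SD, n = 3; 95% interval -1.35 to -0.17), lower in 3 of 3 samples, as were 26.7% of all tested probes. It had an unadjusted p of 0.0203 but did not pass after adjustment (limma adjusted p 0.11), and over 16 alternatives limma's adjusted p ranged from 0.0521 to 0.331. The size was not stable: with the background subtracted outright the mean was -1.95 (limma adjusted p 0.0696), and by the image software's ratio -1.997 (0.0934), both outside that interval. The miR-421 mean was 0.0036 ± 0.63 (SD, n = 3; limma adjusted p 0.994). The difference between the miRNAs was -0.76 (95% interval -1.60 to 0.08; limma adjusted p 0.403).

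The other UGT1A6 probe, A_24_P222872, was near background: Cy3 was well above it on 1 array and Cy5 on 2, the miR-421 pool and replicate 2. Its log2 ratios were 0.0081, -0.08 and -0.22 in the miR-338-5p replicates and 0.08, 0.07 and 0.25 in the miR-421 arrays. These groups did not overlap, which was also so for 19.8% of all tested probes. The difference was -0.23 (95% interval -0.47 to 0.0083; limma adjusted p 0.381). With the background subtracted outright its miR-421 mean became 1.00 and passed (limma adjusted p 0.0347). Its size is not settled, since Cy3 was well above background on 0 and Cy5 on 2 of those 3 arrays. The probe named UGT1A8, which lists UGT1A1 and UGT1A4 transcripts as well, had log2 ratios of -0.13, -0.28 and -0.24 in the miR-338-5p replicates and 0.0069, -0.15 and 0.16 in the miR-421 arrays (limma adjusted p 0.129 and 0.964).

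**Figure D2:**
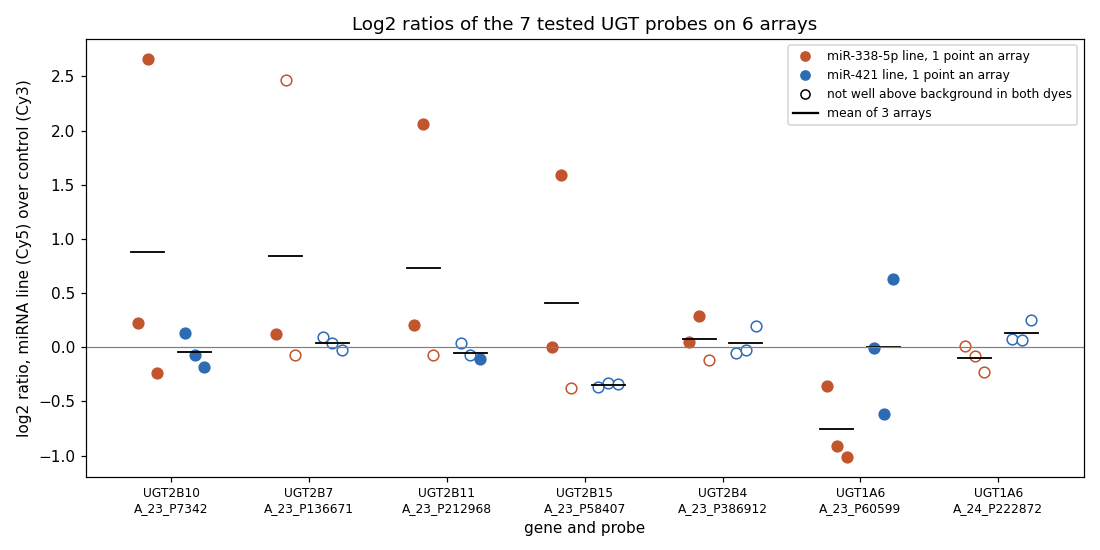
Log2 ratio of the miRNA line (Cy5) over control (Cy3) for the 7 tested UGT probes; each point is 1 array, bars are means of 3 arrays, and open points were not well above background in both dyes. UGT2B10, UGT2B7, UGT2B11 and UGT2B15 lie between 1.59 and 2.66 on 1 array, miR-338-5p replicate 2, and between -0.38 and 0.22 on the others.

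Across the members, 0 of 7 tested probes passed the threshold for miR-338-5p against control in limma's test, where 9% of all tested probes did. For miR-421 against control 0 of 7 passed, where 21.6% of all tested probes did, and for miR-338-5p against miR-421 0 of 7 passed, where 0.0473% did. At an unadjusted p under 0.05 limma called 1, 0 and 0 of the 7, against 27.2%, 37.5% and 13.7% of all tested probes. The median over the 7 probes was 0.40 for the miR-338-5p line and 0.0036 for the miR-421 line, against -0.0027 and 0.0015 over all tested probes. The value of 0.40 is the UGT2B15 mean, which was -0.19 without miR-338-5p replicate 2. The intervals were wide: for UGT2B10 the difference between the miRNAs was 0.92 with a 95% interval of -0.88 to 2.73, so a miss of the threshold does not show equal levels.

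On miR-338-5p replicate 2 alone, 4 of the 7 member probes had a log2 ratio of 1 or more, against 1.7% of all tested probes. With the offset, the same 4 were under 0.5 in size on each of the other 5 arrays, a pattern shared by 0.373% of all tested probes. These limits were chosen after the values were seen, and the counts are a description of 1 array. By the image software's ratio the probes were not all that small elsewhere. UGT2B15 was at -2.29 on miR-338-5p replicate 3 and at -3.25 to -2.12 on the miR-421 arrays. On the other 5 arrays UGT2B11 ran from -1.25 to 0.96 and UGT2B7 from -0.72 to 1.36. The UGT2B7 probe met the filter of 3 arrays only with its Cy5 signal on miR-338-5p replicate 2, so its place among the tested probes rests on the value described. UGT2B10 was higher there than 99.95% of tested probes, UGT2B7 than 99.93%, UGT2B11 than 99.85% and UGT2B15 than 99.62%, whereas the UGT1A6 probe A_23_P60599 was higher than 2.54%. The median of the 5 UGT2B probes was 2.07 on that array and between -0.12 and 0.12 on the other 5.

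The promoters of the genes named by those 4 probes are shown for comparison. None of the 4 probes passed the test, the high values come from 1 array, and the UGT2B10 and UGT2B11 probes also list transcripts of other members. The RefSeq promoter table (GRCh38.p14) held entries for 6 of the 9 members. The 100 bases before the annotated start of each gene follow, 5′ to 3′ on the gene's strand, with no part marked, to show how alike they are. They lie at chr4:68670653-68670752 (minus strand) for UGT2B15, chr4:68815894-68815993 (plus) for UGT2B10, chr4:69096374-69096473 (plus) for UGT2B7 and chr4:69214749-69214848 (minus) for UGT2B11.
UGT2B15: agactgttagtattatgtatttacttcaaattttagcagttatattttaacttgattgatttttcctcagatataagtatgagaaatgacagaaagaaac
UGT2B10: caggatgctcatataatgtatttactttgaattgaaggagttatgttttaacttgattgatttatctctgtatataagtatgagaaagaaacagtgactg
UGT2B7: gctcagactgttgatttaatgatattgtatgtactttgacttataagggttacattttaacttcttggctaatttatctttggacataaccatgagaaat
UGT2B11: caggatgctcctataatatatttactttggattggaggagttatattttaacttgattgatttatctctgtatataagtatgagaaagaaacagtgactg

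The UGT2B10 and UGT2B11 windows were identical at 95 of 100 positions, compared without gaps, so they are not separate observations. Letting 1 window slide by up to 20 bases, with no gaps inside, UGT2B15 matched UGT2B10 at 69 and UGT2B11 at 68 of 99 overlapping bases, at a shift of 1. UGT2B7 matched the other 3 at 46 or 47 of 90 or 91 overlapping bases. The likeness is a description of the sequence, and no promoter activity was measured.

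Tested probes around the cluster did not reach these values. Besides the 5 UGT2B probes, 8 tested probes lay within 1 Mb of the UGT2B probes, and their log2 ratios on miR-338-5p replicate 2 ran from -0.16 to 0.63. The highest was a probe of the noncoding RNA UBA6-AS1, which was also between 0.28 and 0.81 on the other 5 arrays. YTHDC1, a reader of methylated RNA and the nearest tested neighbour, was at 0.09.

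**Figure D3:**
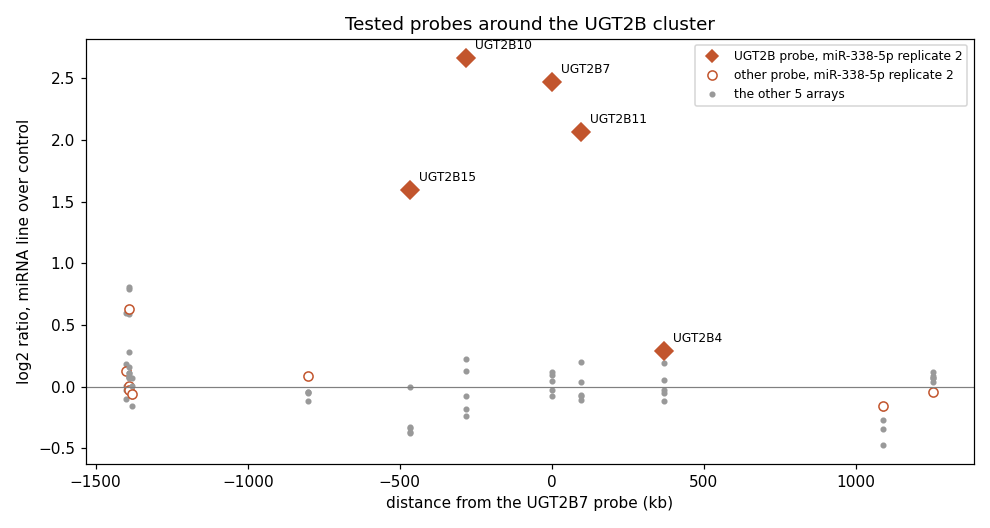
Log2 ratio of tested probes around the UGT2B cluster against distance (kb) from the UGT2B7 probe; orange symbols are miR-338-5p replicate 2 (diamonds for UGT2B probes, open circles for other probes) and grey points the other 5 arrays. UGT2B10, UGT2B7, UGT2B11 and UGT2B15 lie at 1.59 to 2.66 on that array, UGT2B4 at 0.29 and the 8 other probes at -0.16 to 0.63.

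Of 8 markers of hepatocytes, a cell type in which these UGT genes are abundant, 4 were tested, and 2 of them, ALB and TTR, stood apart on that array as well. The list had a summed Cy5 brightness of 11169 on miR-338-5p replicate 2 and of 56.3 to 291 on the other 5 arrays, against 1962 to 2849 in Cy3. APOC3, FGB, HNF4A and CYP3A4 were not bright enough to be tested. ALB, serum albumin, had log2 ratios of -2.89, 2.18 and -5.12 in the miR-338-5p replicates and -5.08, -4.46 and -4.35 in the miR-421 arrays, and TTR, which carries thyroid hormone, had 1.29 on miR-338-5p replicate 2 and -0.58 to -0.17 elsewhere. The others did not stand apart there: APOA1, an apolipoprotein, was at 0.27 on that array and -0.12 to 0.12 on the rest, and SERPINA1, a protease inhibitor, at 0.09 and -0.09 to 0.19. Enterocyte markers, 3 of 7 tested, summed to 1236 in Cy5 on that array and to 50.2 to 575 on the others, but their median log2 ratio there was -0.02. VIL1, a protein of microvilli, was at 1.75, CDH17, an adhesion protein, at -0.02 and LGALS4, a galectin, at -1.34. LGALS4 was below 0 on all 6 arrays and fell in both lines (-1.44 ± 0.09 and -1.28 ± 0.26, SD, n = 3 each; limma adjusted p 0.00483 and 0.00316). The part of these markers in the UGT2B values was not tested. In bulk RNA, fewer cells of a kind and less RNA per cell cannot be told apart.

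**Figure D4:**
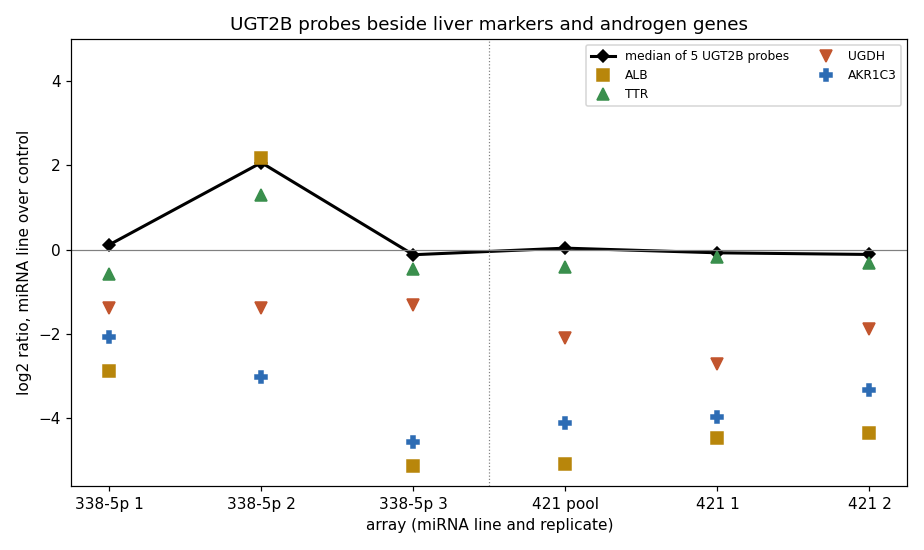
Log2 ratio of the miRNA line over control on each array for the median of the 5 tested UGT2B probes (black diamonds, joined by a line as a guide), ALB, TTR, UGDH and AKR1C3; each symbol is 1 array, and the dotted line parts both lines. The UGT2B median (2.07), ALB (2.18) and TTR (1.29) are above 0 on miR-338-5p replicate 2, where UGDH and AKR1C3 are below 0.

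Genes with the pattern most like a member were sought by Pearson's r of log2 ratios over the 6 arrays, among 3284 genes outside the UGT family that were detected on all arrays and spanned at least 1. The arrays share their kind of control, and r rests mostly on the array that stood apart. UGT2B10 was closest to ANTXR1 (r = 0.998), PCDH20 (0.995) and ALDH1A1 (0.992). UGT2B15 was closest to FES (0.999), AMIGO2 (0.998) and RPS6KA2 (0.994). The UGT1A6 probe A_23_P60599 was closest to MKI67 (0.959), PTPRH (0.952) and CD97 (0.949). For UGT2B10 there were 74 genes, and for UGT2B15 78, with r above 0.95, against 2 for UGT1A6.

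Glucuronidation also needs its sugar donor, and UGDH, which makes UDP-glucuronic acid from UDP-glucose, fell in both lines. Its log2 ratios were -1.39, -1.37 and -1.31 in the miR-338-5p replicates and -2.10, -2.72 and -1.89 in the miR-421 arrays, below 0 on 6 of 6 arrays. The means were -1.35 ± 0.04 and -2.24 ± 0.43 (SD, n = 3 each; limma adjusted p 0.0114 and 0.00252). The miR-338-5p call was lost without miR-338-5p replicate 1 (-1.34, limma adjusted p 0.0517) or replicate 3 (-1.38, 0.0535). The difference of 0.88 between the miRNAs did not pass (limma adjusted p 0.19). Of the 5 tested genes for supply of the donor and removal of glucuronides, 1 fell in the miR-338-5p line, and in the miR-421 line 1 fell and 1 rose: GUSB, the glucuronidase that removes the sugar (0.38 ± 0.05, SD, n = 3; limma adjusted p 0.0225). GUSB lost its call in 7 of 15 alternatives, among them the omission of any miR-421 array.

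Of 12 tested genes of androgen synthesis and of reduction or oxidation, 3 fell in the miR-338-5p line and 5 in the miR-421 line, and 0 rose in either, with list medians of -0.30 and -0.09. Over all tested probes 3.79% rose and 5.22% fell under miR-338-5p, and 9.19% rose and 12.5% fell under miR-421. AKR1C3, which reduces androstenedione to testosterone, had log2 ratios of -2.07, -3.02 and -4.55 in the miR-338-5p replicates and -4.10, -3.96 and -3.33 in the miR-421 arrays. Its means of -3.21 ± 1.25 and -3.80 ± 0.41 (SD, n = 3 each) passed (limma adjusted p 0.0167 and 0.0065), the former not without miR-338-5p replicate 2 (-3.31, 0.0617). AKR1C4, a liver enzyme of the same family, was at -1.33 ± 0.12 and -1.21 ± 0.19 (SD, n = 3 each; limma adjusted p 0.00416 and 0.00266). Its Cy5 was well above background on 1 of 6 arrays and not on any miR-421 array, so neither size is settled. With the background subtracted outright the miR-338-5p mean was -3.92. Under miR-421 the measured signal was 2.31-fold lower than control, or 15.0-fold with the background subtracted outright. CYP17A1, which makes androgen precursors, and SRD5A1, which makes dihydrotestosterone, did not pass in either line (limma adjusted p 0.142 to 0.876).

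For export, 1 of 5 tested genes of conjugate efflux and steroid uptake fell in each line and 0 rose. It was ABCC3, an exporter of glucuronides, with log2 ratios of -0.55, -0.43 and -0.58 in the miR-338-5p replicates and -0.52, -0.52 and -0.59 in the miR-421 arrays. Both means passed (limma adjusted p 0.0095 and 0.0048), but Cy5 was well above background on 0 of 6 arrays, so the size is not settled. With Cy5 set no lower than the dimmest detected probe, the signal was 1.42-fold lower under miR-338-5p and 1.44-fold lower under miR-421. With the background subtracted outright these sizes were 4.64-fold and 8.79-fold. The miR-338-5p call was lost without miR-338-5p replicate 3 (-0.49, limma adjusted p 0.0516).

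In the parallel route of sulfate conjugation, 1 of 4 tested genes fell in each line: PAPSS1, which makes the sulfate donor, at -1.10 ± 0.44 and -1.51 ± 0.30 (SD, n = 3 each; limma adjusted p 0.025 and 0.00703). The miR-338-5p call was lost in 6 of 15 alternatives. Among them were the image software's ratio (limma adjusted p 0.0558) and the omission of miR-338-5p replicate 1 (0.0867) or 3 (0.0805). The omission of the miR-421 pool (0.0542) or of miR-421 replicate 2 (0.0547) lost it too. SULT2B1, a sulfotransferase of steroids, rose under miR-421 by 0.51 ± 0.10 (SD, n = 3; limma adjusted p 0.00988), and the call was lost without miR-421 replicate 2 (0.47, limma adjusted p 0.0682).

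Of 6 other UGT genes with a probe, 2 were tested. UGT8, which makes galactosylceramide and is not an androgen enzyme, had means of -0.45 ± 0.16 with miR-338-5p and -0.44 ± 0.23 with miR-421 (SD, n = 3 each; limma adjusted p 0.0499 and 0.0327), and both calls were lost in most of 15 alternatives, 11 and 9 of them. In none of these lists did a gene pass for the difference between the miRNAs in limma's test.

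The size of the UGT2B and UGT1A6 values depended on how the background was treated. On miR-338-5p replicate 2 the image software's log2 ratio was 3.28 for UGT2B10, 5.35 for the UGT2B7 probe A_23_P136671, 4.13 for UGT2B11, 3.17 for UGT2B15 and 1.55 for UGT2B4. For UGT2B15 under miR-421 it was -2.34, -3.25 and -2.12 in the pool and replicates 1 and 2, which averaged -2.57 ± 0.60 (SD, n = 3) and had a limma adjusted p of 0.0731. All 3 arrays were below 0 by either ratio, and Cy5 was not well above background on any of them. The UGT1A6 probe A_23_P60599, well above background in both dyes, also differed in size: its software log2 ratios were -0.61, -2.41 and -2.97 in miR-338-5p replicates 1, 2 and 3. In the authors' deposited table, which gives 1 log2 ratio per gene name, UGT2B15 was at 0.10, 3.17 and -2.29 in miR-338-5p replicates 1, 2 and 3, and UGT1A6 at -0.61, -2.41 and -2.97. The table's normalization and centring are not stated; its direction and scale follow the image software's ratio.

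**Figure D5:**
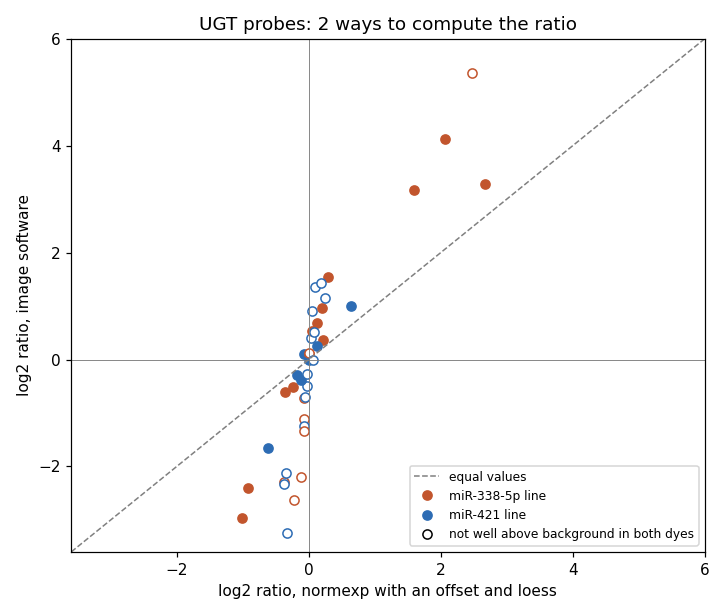
Log2 ratio of the image software against the log2 ratio after normexp with an offset and loess, for the 7 tested UGT probes on 6 arrays (1 point per probe and array; open where not well above background in both dyes; the dashed line marks equal values). UGT2B10, UGT2B7, UGT2B11 and UGT2B15 on miR-338-5p replicate 2 lie at 3.17 to 5.35 by the software and at 1.59 to 2.66 by the other.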

How the data were processed

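Total RNA was given poly(A) tails and labelled from oligo-dT, per the labels' protocols, and hybridised to 6 Agilent arrays of 62976 spots. Per the file headers, the authors used Feature Extraction 11.5.1.1. The deposited intensity values were spot means and local background medians per dye, not normalized, and the deposited log10 ratio was background-subtracted and dye-normalized by that software. The authors' deposited table held a log2 ratio per gene name.

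Here intensities were corrected by normexp (offset 50), normalized by loess without control spots, and averaged per probe, with outlier spots left out. The 27503 probes that 3 or more of the 6 arrays flagged well above background, in Cy3 or Cy5, entered 1 limma fit (R 4.3.3, limma 3.58.1; two-sided, Benjamini-Hochberg at 0.05 over all tested probes). The fit shares 1 spread per probe between groups, with 2.05 prior degrees of freedom, and was tested on simulated data. A gene in a list was represented by its brightest tested probe, and every member probe is described. Members and lists were chosen with earlier results of these data known. Some genes of the lists, and 2 lists that turn on them, are not reported here. Symbols of 21 of 23 RefSeq accessions were matched through a GRCh38.p14 table. The number of arrays limits the precision. Alternatives covered background, normalization, ratio source, filter, outliers, variance model, block and each array left out.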

Additional observations from a re-analysis of the deposited data

Results flagged for a closer look

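For UGT2B11 the Cy3 (control) level on miR-421 replicate 2 was 6.17 on the log2 scale, against 5.96 to 6.03 on the other 5 arrays, a gap large for its range by Dixon's test at 95%. For the UGT1A6 probe A_24_P222872 the Cy3 level on miR-421 replicate 1 was 5.80, against 5.92 to 5.98 on the other 5. Chance alone flags about 1 in 20 such groups, and 9 probes were looked at. Both probes were near background in Cy3.

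The UGT2B7 probe A_21_P0012590, which entered no comparison, was well above background in Cy5 on 1 array, miR-338-5p replicate 3, and in Cy3 on 0. Its Cy5 brightness there was 9.84, and 2.27 to 8.37 on the other 5 arrays.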

How the results depend on the processing

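The 3 counts of member probes past the threshold were 0, and stayed at 0 in 45 of 48 alternative values. For miR-421 against control the count became 1 with the background subtracted (UGT1A6 A_24_P222872), without miR-338-5p replicate 2 (UGT2B15) and, in an alternative added after the data were seen, with the image software's ratio and that array left out (UGT2B15, -2.57, limma adjusted p 0.0188). Leaving out each array in turn gave 0 to 1 for miR-421, and 0 for the other comparisons. In the main fit 21.6% of all tested probes passed for miR-421 against control. The share in each alternative is not given here, so a count of 1 is not a result about the members.

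Of 321 values of single member probes, 309 kept their side of the threshold and, where the value exceeded its standard error, their direction. Some alternatives, such as leaving out an array of the other line, could change only the p-value and not a line's mean. The 9 values that reversed all left out miR-338-5p replicate 2. For miR-338-5p against control these were UGT2B15 (-0.19 after loess, in a leave-one-out range of -0.19 to 0.80, and -1.09 by the image software's ratio), UGT2B10 (-0.0070, in a range of -0.0070 to 1.44, and -0.080), and by the software's ratio UGT2B7 (-0.021) and UGT2B11 (-0.077). For the difference between the miRNAs they were UGT2B7 (-0.014 after loess, in a range of -0.014 to 1.26, and -0.61 by the software's ratio) and UGT2B10 (-0.11 by the software's ratio). Of 480 values of called genes in the lists, 133 lost the call and 0 reversed.

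With a replicate block (the shared numbers 1 and 2 as a random effect, a paired analysis) each count was 0, and the consensus correlation was -0.297. Residuals of same-numbered arrays correlated at -0.14 and -0.21, and those of pairs with unlike numbers at -0.15 to 0.20. So few correlations cannot settle whether the numbers pair the arrays. The members are dim: the offset shrinks their ratios towards 0, and ratios of spots not above background have no exact size. There was no dye swap, so dye bias cannot be told apart from a change in either line.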
